A study of Mus musculus with 13 samples.

Results

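High endothelial venule genes were followed in mouse tissue by bulk RNA sequencing of entire B16F10 tumours and of the lymph nodes that drain them (tdLN). The set held 10 genes, chosen by symbol and matched by Ensembl identifier to 10 of the 49315 rows that both deposited count tables list. They are Glycam1, Chst4, Fut7, Gcnt1, Cd34, Madcam1, Selp, Sele, Ackr1 and Enpp2. The mice were females with a Foxp3eGFP-Cre-ERT2 allele and a floxed Jag1 gene, in which tamoxifen activates Cre in cells that express Foxp3, that is, in regulatory T cells. Every group received tamoxifen, as 5 doses of 0.1 mg per gram, starting from an age of 6 to 8 weeks. After a washout of 9 days, B16F10 melanoma cells (200000 per mouse, mixed with matrigel) were injected into the skin of the left flank at 6 to 11 weeks of age. The groups were Foxp3Ctrl tdLN, Foxp3ΔJag1 tdLN and Foxp3Ctrl tumour, each with 3 libraries from mice with different codes in the library names. The sources give the Foxp3Ctrl genotype once as WT and once as fl/wt, the Foxp3ΔJag1 mice are given as Foxp3creERT2 with Jag1fl, and the day of harvest is not stated.

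High endothelial venules are the vessels through which lymphocytes leave the blood and enter a lymph node. Their tall endothelial cells display mucin-like proteins decorated with sulphated, fucosylated sugars, and L-selectin on naive lymphocytes binds these sugars while the cell rolls along the vessel wall. Chemokines then trigger integrin-dependent arrest, and continuous lymphotoxin signalling is needed to keep the venules in their specialised state. Glycam1 and Cd34 encode carriers of the sugars, and Chst4, Fut7 and Gcnt1 encode the sulphotransferase, fucosyltransferase and core branching enzyme that build them. Madcam1 encodes the addressin bound by integrin α4β7, Selp and Sele encode the inducible P- and E-selectins, Ackr1 encodes a chemokine-binding receptor of venules, and Enpp2 encodes autotaxin, a secreted enzyme that makes lysophosphatidic acid. Several are not particular to these vessels: Glycam1 is also a milk gene, Fut7 and Gcnt1 act in lymphocytes, Selp is stored in platelets, Cd34 marks other vessels and some stroma, and Enpp2 is made by node stroma.

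Jag1 encodes a Notch ligand, and the non-canonical NF-kB pathway acts downstream of the lymphotoxin receptor, so the stretches of 250 bases before the start of each member were searched for both kinds of motif. The letters searched were TGGGAA, the core bound by the Notch partner RBPJ, and GGGNNNNNCC, a loose NF-kB motif, on both strands and with overlaps allowed. The RefSeq promoter table (GRCm38.p6) held 9 of the 10 members, with 12 windows in all. Glycam1 and Madcam1 are printed because their windows held several RBPJ cores, and capitals mark the letters matched. The sequences run 5′ to 3′ on the strand of the gene, at chr15:103565082-103565331 (minus strand) for Glycam1 and chr10:79664309-79664558 (plus strand) for Madcam1.
Glycam1: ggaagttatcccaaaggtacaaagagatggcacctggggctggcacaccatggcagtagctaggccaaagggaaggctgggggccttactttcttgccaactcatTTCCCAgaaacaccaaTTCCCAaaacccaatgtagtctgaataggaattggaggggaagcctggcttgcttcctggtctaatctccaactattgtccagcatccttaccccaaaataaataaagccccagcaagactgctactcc
Madcam1: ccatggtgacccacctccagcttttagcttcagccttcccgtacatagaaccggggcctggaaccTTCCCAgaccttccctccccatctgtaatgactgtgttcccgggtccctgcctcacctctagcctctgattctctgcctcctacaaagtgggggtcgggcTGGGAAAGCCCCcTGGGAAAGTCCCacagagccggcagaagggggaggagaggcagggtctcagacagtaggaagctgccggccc

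The Glycam1 window held 2 RBPJ cores, starting 145 and 129 bases before the start, and no NF-kB match. The Madcam1 window held 3 RBPJ cores, starting 185, 85 and 72 bases before the start. It also held 4 NF-kB matches, at 84, 83, 71 and 70 bases, all of which overlap one another or the letters of an RBPJ core. Of the 32851 windows of this length in the table, 21.6% held at least 1 RBPJ core, 2.77% at least 2 and 0.204% at least 3. At least 1 NF-kB match was present in 45.8% of windows and at least 4 in 4.97%. Over all windows, 4 members had an RBPJ core (Glycam1, Madcam1, Ackr1 and Sele) and 5 had an NF-kB match (Madcam1, Selp, Sele, Cd34 and Gcnt1). A match describes the letters and does not show that a factor binds there.

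All 9 libraries were deep, with 33157236 to 44540888 counts in nodes and 32117478 to 40968494 in tumours. Lineage markers followed the labelled tissues. The 6 T cell markers summed to 1014 to 1311 CPM (counts scaled to the library total) in the nodes of both genotypes and to 25.4 to 45.93 CPM in tumours. The 4 B cell markers summed to 2250 to 2453 CPM in nodes and to 1.611 to 2.583 CPM in tumours. In whole nodes the targeted gene did not distinguish the genotypes, since Jag1 was at 23.21 ± 1.211 CPM in Foxp3Ctrl nodes, against 24.09 ± 3.58 CPM in the nodes labelled Foxp3ΔJag1 (SD, n = 3 each). Foxp3, which marks the cells in which Cre acts, was at 16.03 ± 3.34 CPM and 19.72 ± 3.533 CPM respectively. In bulk tissue, fewer cells of a type and less RNA per cell cannot be told apart, and this holds for every level below.

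The nodes of both genotypes carried all 10 members, with the carrier Glycam1 far above the rest. Levels of different genes were compared as CPM per kilobase of merged exon. In Foxp3Ctrl nodes Glycam1 stood at 888.2 ± 209.1 CPM per kilobase (SD, n = 3), which placed it 36 among 17560 protein-coding genes with a count. Enpp2 came next at 57.93 ± 3.669 CPM per kilobase followed by Gcnt1 at 13.2 ± 0.9636. The enzymes Chst4 (9.929 ± 1.103) and Fut7 (9.499 ± 0.6334) did not differ beyond the spread of their libraries, and neither did Cd34 (7.793 ± 0.5504) and Ackr1 (7.655 ± 1.549). Madcam1 followed at 5.588 ± 0.5314 CPM per kilobase. The inducible selectins were the lowest, Selp at 1.589 ± 0.4949 and Sele at 0.7072 ± 0.06437 CPM per kilobase.

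In Foxp3ΔJag1 nodes the order was nearly the same on that scale. Glycam1 led at 778.3 ± 168 CPM per kilobase, in place 41 among 17481 protein-coding genes, before Enpp2 at 60.73 ± 4.996 and Gcnt1 at 13.8 ± 0.7006. Fut7 (10.19 ± 0.4969) and Chst4 (10.04 ± 0.8555) overlapped in range. So did Ackr1 (7.978 ± 0.8271) with Cd34 (7.342 ± 0.2401), and Cd34 with Madcam1 (6.482 ± 2.373). Selp (1.646 ± 0.5136) and Sele (0.8239 ± 0.1708) were again the lowest.

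In Foxp3Ctrl tumours the order was different. Enpp2 was the highest at 17.02 ± 6.771 CPM per kilobase, above Cd34 at 4.127 ± 1.906 and Gcnt1 at 2.38 ± 0.6098, whose ranges overlapped. Ackr1 (0.7011 ± 0.3311), Selp (0.5983 ± 0.2996), Fut7 (0.2565 ± 0.0815), Sele (0.2023 ± 0.1423) and Madcam1 (0.1144 ± 0.08399) followed, each overlapping its neighbour. Glycam1, the leading member of the nodes, fell to place 16781 of 17346 protein-coding genes with a count in tumours, and Chst4 had no count at all.

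**Figure D1:**
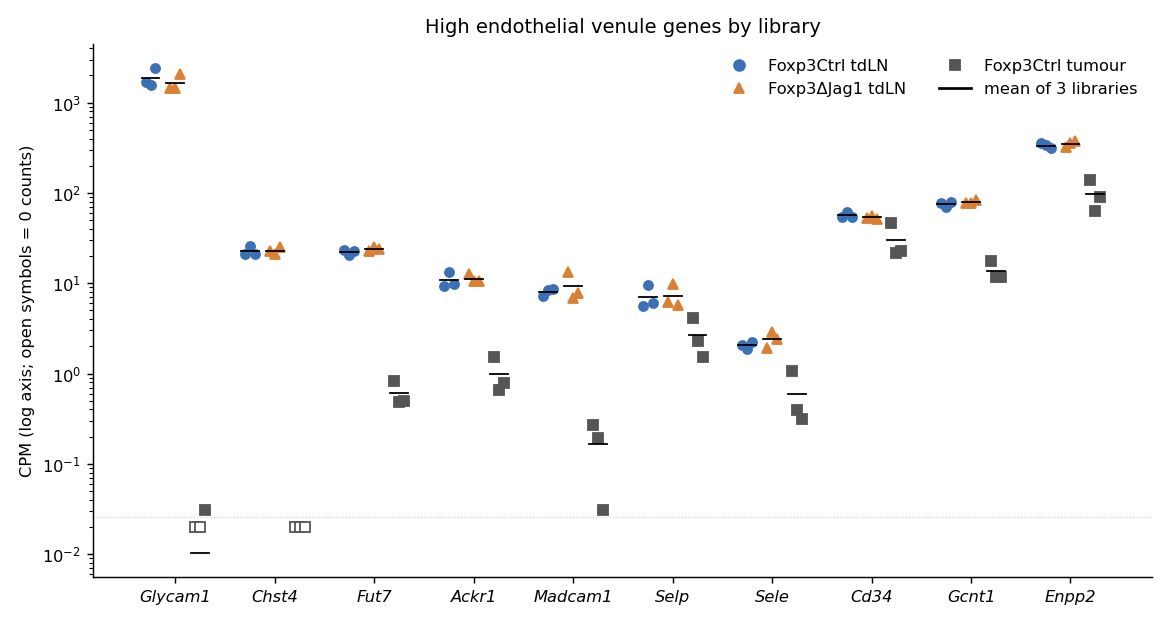
Level of each gene in CPM (log axis) in every library; points are libraries, lines are means of 3, and open symbols are libraries with 0 counts. Glycam1 stands at 1441 CPM or more in all 6 nodes and has 1 count over the 3 tumours, whereas the levels of the 2 node genotypes overlap for every gene.

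The first comparison was between Foxp3ΔJag1 and Foxp3Ctrl nodes, that is, after deletion of Jag1 was directed to Foxp3-expressing cells. No member of the venule programme passed the test, and the ranges of the libraries overlapped between the genotypes for all 10. In this comparison the edgeR quasi-likelihood test with Benjamini-Hochberg adjustment called 7 of 18440 genes, or 0.038% in either direction, and 7.29% of genes had ranges that did not overlap. With so few genes called, 0 of 10 is near the background. At an unadjusted p under 0.05 stood 0 members against 3.15% of all genes, and DESeq2 and limma-voom also called 0 of the 10. The median log2 fold change of the members was 0.04, with 7 above 0 and 3 below, beside a median of -0.00 over all genes.

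Among the genes for L-selectin ligands, the carrier Glycam1 was at 1710, 1570 and 2403 CPM in the Foxp3Ctrl nodes and at 1441, 1466 and 2074 CPM in the Foxp3ΔJag1 nodes. One node in each genotype was high, the third replicate in both, and the other 4 lay close together. The log2 fold change in Foxp3ΔJag1 was -0.21 ± 0.19 (SE; 95% interval -0.64 to 0.23; edgeR adjusted p = 0.953). Chst4, whose product adds the sulphate recognised by L-selectin, was at 21.23, 25.56 and 21.18 CPM against 22.65, 21.11 and 24.99 CPM. Its values were interleaved, and its log2 fold change of -0.01 ± 0.12 had an interval of -0.28 to 0.26 (edgeR adjusted p = 0.995).

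Fut7, whose product adds the fucose, was at 23.43, 20.66 and 23.01 CPM in Foxp3Ctrl and 22.73, 25.03 and 24.22 CPM in Foxp3ΔJag1 nodes. Its groups overlapped, with a log2 fold change of 0.08 ± 0.09 (interval -0.13 to 0.29; edgeR adjusted p = 0.953). Gcnt1, which encodes the core branching enzyme, was at 78.28, 69.7 and 80.09 CPM against 77.68, 76.7 and 84.12 CPM. With a log2 fold change of 0.04 ± 0.07, its interval of -0.12 to 0.21 was the narrowest of the 10. The carrier Cd34 was at 54.74, 61.44 and 54.26 CPM against 53.13, 55.43 and 52 CPM. Its log2 fold change was -0.11 ± 0.08 (interval -0.30 to 0.08; edgeR adjusted p = 0.953), and its unadjusted p of 0.226 was the lowest among the members.

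Among the adhesion molecules, Madcam1 was at 7.159, 8.312 and 8.602 CPM in Foxp3Ctrl nodes and at 13.2, 6.846 and 7.88 CPM in Foxp3ΔJag1 nodes. A single Foxp3ΔJag1 node, replicate 1, was high, and the other 5 lay within a narrow band. The log2 fold change was 0.19 ± 0.23 (interval -0.34 to 0.72; edgeR adjusted p = 0.953), and it was -0.14 without that node. Selp was at 5.535, 9.52 and 5.979 CPM against 6.222, 9.862 and 5.703 CPM, so replicate 2 was the highest in each genotype. Its log2 fold change of 0.02 ± 0.29 had an interval of -0.64 to 0.68 (edgeR adjusted p = 0.996). Sele was low throughout, at 2.093, 1.858 and 2.228 CPM against 1.9, 2.895 and 2.402 CPM, with a log2 fold change of 0.20 ± 0.22 (interval -0.31 to 0.70; edgeR adjusted p = 0.953).

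The chemokine-binding receptor gene Ackr1 was at 9.307, 13.26 and 9.701 CPM in Foxp3Ctrl and 12.55, 10.62 and 10.46 CPM in Foxp3ΔJag1 nodes. The groups overlapped on this scale, with a log2 fold change of 0.03 ± 0.17 (interval -0.36 to 0.42; edgeR adjusted p = 0.989). Ackr1 shares 361 exon bases (25.7% of its exon length) with the neighbouring gene Cadm3 on the same strand, so part of its count is uncertain. Enpp2 was at 355.6, 335.6 and 313.2 CPM against 319.3, 357.7 and 375.9 CPM. Its groups overlapped, and its log2 fold change was 0.04 ± 0.09 (interval -0.17 to 0.26; edgeR adjusted p = 0.968). Every one of the 10 intervals excluded a doubling or a halving (a log2 fold change of 1 or -1) and included 0.

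**Figure D2:**
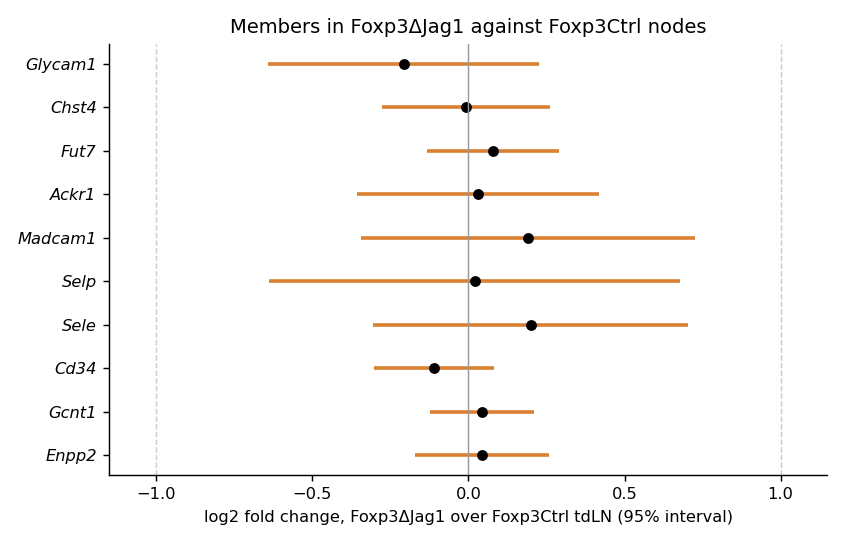
Log2 fold change of each gene in Foxp3ΔJag1 over Foxp3Ctrl nodes (points) with its 95% interval (bars) from edgeR, 3 libraries per group; dashed lines mark 1 and -1. All 10 intervals cross 0 and lie inside the dashed lines, from -0.64 for Glycam1 to 0.72 for Madcam1 at the ends.

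Glycam1, Selp and Madcam1, the members with the widest spread between single nodes, were each set beside summed markers of another tissue or cell type. High values met in some nodes and not in others. Glycam1 was the highest in Foxp3Ctrl replicate 3, where 11 mammary and other epithelial markers summed to 126.1 CPM, against 13.19 and 36.71 CPM in replicates 1 and 2. Of those markers, 10 of 11 had a count in Foxp3Ctrl nodes and Csn1s1 was at 0. In Foxp3ΔJag1 nodes 8 of 11 had a count, the milk genes Csn3, Csn1s1 and Wap were at 0, and the list summed to 9.346, 7.6 and 11.45 CPM. Csn2 and Lalba, also milk genes, had means of 0.7035 ± 0.1041 and 0.1792 ± 0.06083 CPM over the Foxp3Ctrl nodes (SD, n = 3). Their means over the Foxp3ΔJag1 nodes were 0.6819 ± 0.1747 and 0.16 ± 0.09913 CPM. Most of the Foxp3Ctrl sum came, on average, from Krt19 (14.54 CPM), Epcam (14.44), Krt8 (13.1) and Krt18 (10.92). In Foxp3ΔJag1 nodes Epcam, at a mean of 8.182 CPM, made up most of the sum. Foxp3ΔJag1 replicate 3, the other node high in Glycam1 (2074 CPM), had the list sum of 11.45 CPM. The part of mammary tissue in these values was not tested.

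Selp, which platelets also hold, was the highest in replicate 2 of each genotype. The 8 platelet markers, all with a count in each group, summed to 55.18, 57.93 and 23.92 CPM in Foxp3Ctrl and to 53.57, 87.61 and 44.77 CPM in Foxp3ΔJag1 nodes. On average a single gene, Itga2b, made up most of this sum. Its mean was 39.82 ± 19.84 CPM over the Foxp3Ctrl nodes, against 46.58 ± 6.29 CPM over the Foxp3ΔJag1 nodes (SD, n = 3 each). Ppbp, a chemokine of platelet granules, was at 15.86 CPM in Foxp3ΔJag1 replicate 2 and at no more than 0.2786 CPM in any other node. Foxp3Ctrl replicate 2 had 0.2786 CPM of Ppbp but the highest sum of blood endothelial markers, 1703 CPM against 1201 to 1359 CPM in the other 5 nodes. Madcam1 was the highest in Foxp3ΔJag1 replicate 1, where 7 adipocyte markers summed to 255.6 CPM. Foxp3Ctrl replicate 3 had 204.2 CPM of adipocyte markers and 8.602 CPM of Madcam1, and the other nodes had 20.7 to 83.26 CPM of adipocyte markers. All 7 adipocyte markers had a count in each group, and on average Fabp4 made up most of their sum in nodes. Its mean was 76.89 ± 56.31 CPM over the Foxp3Ctrl nodes, against 64.85 ± 76.91 CPM over the Foxp3ΔJag1 nodes (SD, n = 3 each). Whether the Itga2b and Fabp4 counts came from platelets and fat was not tested. The parts of platelets and of fat in these values were not tested.

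**Figure D3:**
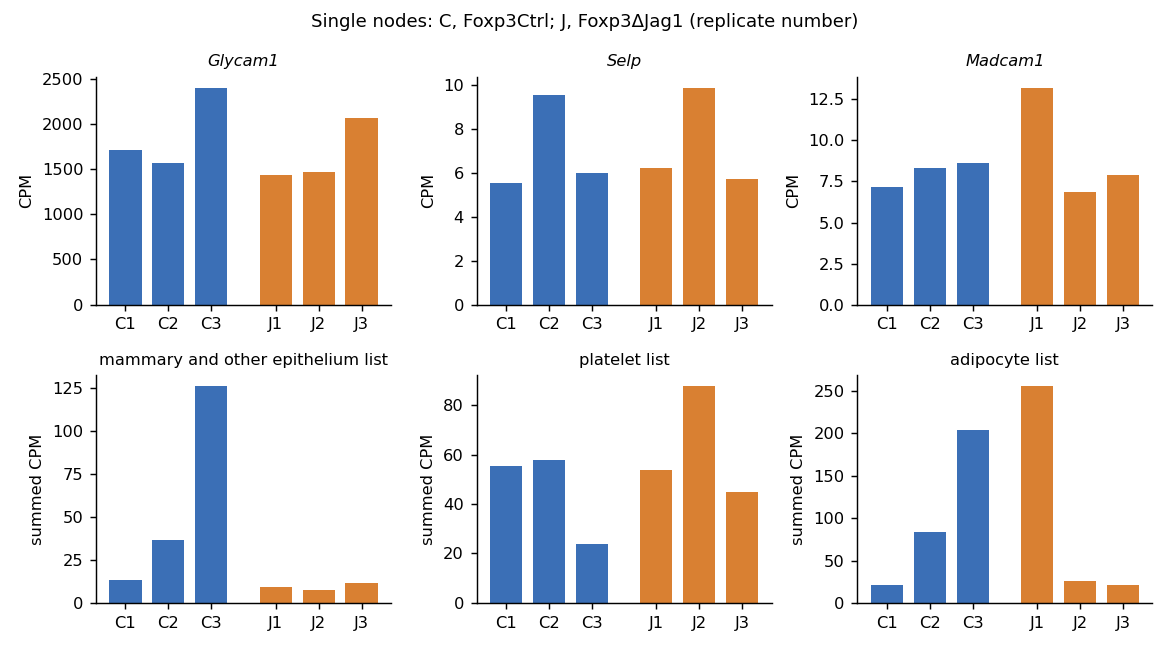
CPM of Glycam1, Selp and Madcam1 in the 6 single nodes (upper bars; C, Foxp3Ctrl; J, Foxp3ΔJag1; the digit is the replicate) above the summed CPM of epithelial, platelet and adipocyte markers (lower bars). Glycam1 is high in C3 and J3 while the epithelial sum is high in C3 and low in J3; Selp and the platelet sum are both highest in J2, and Madcam1 and the adipocyte sum in J1.

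Over the 6 nodes, the gene whose log2 CPM was most like that of Glycam1 was Samd3, with a Pearson r of 0.979. Stk38l (0.977), Rnf169 (0.977), Aldh1a3 (0.973) and Cnep1r1 (0.973) came next. Aldh1a3, which encodes a retinaldehyde dehydrogenase, stood at 7.22 CPM in the third Foxp3Ctrl node and at 4.872 CPM in the third Foxp3ΔJag1 node, and at 2.624 to 3.204 CPM in the other 4. Of 14515 protein-coding genes, 67 (0.462%) had an r over 0.9. No other member was among them: the r of Gcnt1 was 0.496, and the others ran from 0.0353 for Sele to -0.62 for Ackr1. These correlations describe 6 libraries, in which 2 high nodes set most of the spread of Glycam1, and the points share their libraries and depths.

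The members were then set beside blood endothelial markers. Each log2 level (CPM plus 0.5) was taken relative to the mean of 16 blood endothelial genes such as Cdh5 and Pecam1. Lymphocytes also express Pecam1, so this mean does not measure blood endothelium alone. With 3 against 3 libraries the smallest exact 2-sided permutation p is 0.1, and p-values are given unadjusted for 20 such comparisons. Relative to these genes, Ackr1 was higher in every Foxp3ΔJag1 node than in any Foxp3Ctrl node, at -1.98, -2.15 and -2.05 against -2.26, -2.31 and -2.18 on the log2 scale. The difference was 0.19 (exact permutation p = 0.1, the smallest possible). Among all genes, 2.87% were higher in this way and 0.629% lower. The other 9 members overlapped, with differences between -0.07 for Glycam1 and 0.29 for Sele.

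The summed blood endothelial markers overlapped between the genotypes, at 1278, 1703 and 1201 CPM in Foxp3Ctrl and 1351, 1359 and 1253 CPM in Foxp3ΔJag1 nodes, with Foxp3Ctrl replicate 2 the highest. All 16 blood endothelial genes had a log2 fold change below 0 in Foxp3ΔJag1 nodes, with a median of -0.16. So did all 7 lymphatic endothelial genes, with a median of -0.41, beside 9436 of the 18440 genes tested. The genes of a list share their libraries, so their signs are not independent of each other. None of these 23 genes was called by edgeR, DESeq2 or limma-voom, and 0 reached an unadjusted p under 0.05. The summed lymphatic markers were spread widely in Foxp3Ctrl nodes, from 100.1 CPM in replicate 3 to 356.4 CPM in replicate 2, and lay between 153.1 and 177.8 CPM in Foxp3ΔJag1 nodes. Whether the level of endothelium accounts for the relative difference of Ackr1 was not tested.

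**Figure D4:**
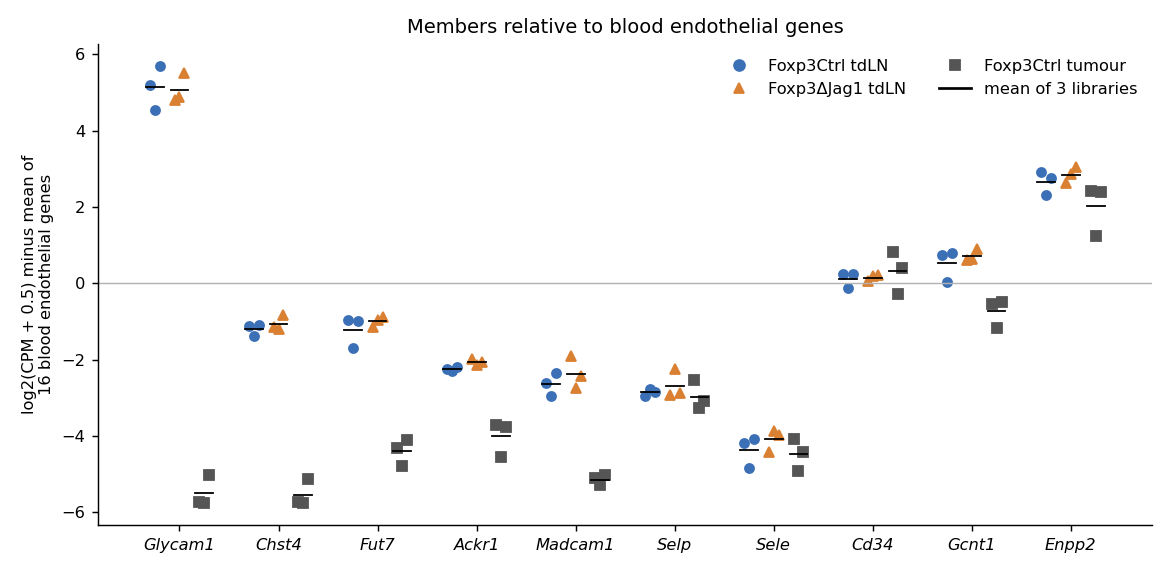
Log2(CPM + 0.5) of each gene minus the mean of 16 blood endothelial genes in each library (points; lines, means of 3); 0 is the level of the average endothelial gene. Glycam1, Chst4, Fut7, Ackr1, Madcam1 and Gcnt1 lie lower in every tumour than in any node, while Selp, Sele, Cd34 and Enpp2 overlap.

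The second comparison was between tumours and nodes of Foxp3Ctrl mice, with the node libraries of the first comparison as the reference in both. All 10 members fell in tumours, and in each of the 10 every tumour was below every Foxp3Ctrl node. The edgeR test called 37.6% of the 18566 genes tested lower in tumours and 35.6% higher, and 41.5% of genes were lower in every tumour. The median log2 fold change of the members was -2.90, beside -0.05 over all genes. The median of the 16 blood endothelial genes was -1.31, and 13 of them fell while 1, Eng, rose. Tissue composition differed throughout, as the T and B cell sums above show, and 5 melanoma markers summed to 16390 to 21780 CPM in tumours against 4.203 to 24.82 CPM in Foxp3Ctrl nodes. What cell composition contributes to these folds was not tested.

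The carrier gene Glycam1 and the sulphotransferase gene Chst4 were at the edge of detection or beyond it in tumours. Glycam1 had 0, 0 and 1 count in the 3 tumours against 214941 counts over the 3 nodes. The ratio of the pooled libraries was 2.071e+05 (95% exact counting interval 3.716e+04 to 8.179e+06), and its fitted log2 fold change was the lowest of all 18566 genes (edgeR adjusted p = 9.19e-08). Chst4 had 0 counts in 110639658 tumour counts and 2623 in the nodes, which made it at least 842.3-fold lower when set against 3 counts over the group (edgeR adjusted p = 2.45e-06). Counting intervals and floors cover counting error only.

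Fut7 was at 0.8255, 0.4882 and 0.4982 CPM in tumours, far below its 20.66 to 23.43 CPM in nodes. Its log2 fold change was -5.14 ± 0.24 (35.4-fold lower; edgeR adjusted p = 1.04e-06). Gcnt1 was at 17.76, 11.62 and 11.74 CPM in tumours, below 69.7 CPM, its lowest node. It fell by 2.41 ± 0.17 on the log2 scale (5.33-fold; edgeR adjusted p = 8.82e-06). Cd34 was at 46.12, 21.63 and 22.51 CPM in tumours, with tumour replicate 1 close to the nodes. It had the smallest fold of the members, a log2 fold change of -0.87 ± 0.30 (1.82-fold lower; edgeR adjusted p = 0.0332). The call on Cd34 was lost when any of 5 of the 6 libraries was left out (adjusted p up to 0.103) and kept without tumour replicate 1 (-1.29; adjusted p = 9.39e-05).

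Among the adhesion molecules, Madcam1 had 19 counts over the 3 tumours, at 0.2663, 0.1953 and 0.03114 CPM. It was 46.8-fold lower in the pooled libraries (95% exact counting interval 29.8 to 78.09), with a log2 fold change of -5.48 ± 0.47 (edgeR adjusted p = 2.3e-05). The selectins fell less. Sele was at 1.065, 0.3905 and 0.3114 CPM in tumours, with a log2 fold change of -1.74 ± 0.45 (3.33-fold lower; edgeR adjusted p = 0.0081). Without tumour replicate 1, the highest of the 3, the log2 fold change of Sele was -2.45 (adjusted p = 0.000393). Selp was at 4.101, 2.294 and 1.526 CPM, with a log2 fold change of -1.36 ± 0.40 (2.57-fold lower; edgeR adjusted p = 0.0156). The call on Selp was lost without Foxp3Ctrl node replicate 2 (adjusted p = 0.0547) and without tumour replicate 2 (adjusted p = 0.0564). Replicate 2 is the Foxp3Ctrl node in which Selp was the highest.

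Ackr1 was at 1.518, 0.659 and 0.7784 CPM in tumours, every one below the nodes, with a log2 fold change of -3.40 ± 0.36 (10.5-fold lower; edgeR adjusted p = 7.23e-05). Enpp2, which had the highest level per kilobase in tumours, was at 140.6, 63.32 and 91.13 CPM. Its log2 fold change was -1.72 ± 0.27 (3.29-fold lower; edgeR adjusted p = 0.000998).

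Node and tumour libraries with the same replicate number carry the same mouse code, so the tumour level could be read as a share of the node level of the same mouse. For Cd34 these shares were 84.3%, 35.2% and 41.5% in mice 1 to 3, and for Selp 74.1%, 24.1% and 25.5%. For Ackr1 they were 16.3%, 4.97% and 8.02%, and for Fut7 3.52%, 2.36% and 2.16%. Mouse 1 had the highest share for each of these 4 genes, and also for Madcam1, Sele, Gcnt1 and Enpp2. Its tumour also had the highest level of Col1a1, the major collagen gene of fibroblasts, at 1626 CPM against 871.3 and 550.3 CPM in tumours 2 and 3. Col1a1 made up most of the sum of the 6 fibroblastic and follicular stroma markers, 1692, 922.6 and 590.6 CPM, all of which had a count in each group. The sum of blood endothelial markers, 797.9 CPM in tumour 1, was close to the 810 CPM of tumour 2. Eng had the largest mean of those markers in tumours, 348.5 ± 29.81 CPM (SD, n = 3). Tumour 1 was also the highest in lymphatic endothelial markers, at 114.8 CPM against 71.08 and 88.49 CPM. The same held for platelet, epithelial, erythroid, mast cell, neutrophil and B cell markers. Tumour 2 was the highest in adipocyte markers, and tumour 3 in T cell and melanoma markers. The parts of stroma and of these other cells in the tumour levels were not tested.

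Relative to the 16 blood endothelial genes, the members separated into 6 and 4. The reference genes themselves moved apart between tumours and nodes, from a log2 fold change of -2.91 for Pecam1 to 1.51 for Eng. The differences between tumours and nodes were -10.64 for Glycam1, -4.34 for Chst4, -3.19 for Fut7, -2.50 for Madcam1, -1.76 for Ackr1 and -1.26 for Gcnt1. These 6 were lower in every tumour than in any node (exact permutation p = 0.1 each, the smallest possible), a pattern that 10.1% of all genes had. For genes near 0 counts, Glycam1 and Chst4 above all, the size of the difference depends on the added 0.5 CPM. The other 4 overlapped, with differences of -0.65 for Enpp2 (exact permutation p = 0.3), -0.11 for Selp (0.6), -0.10 for Sele (0.8) and 0.20 for Cd34 (0.5). At 3 against 3 libraries these values do not show that the 4 kept pace with endothelium. The Sele difference also depended on the added constant. With 0.1 CPM added in place of 0.5 CPM it was -0.59, and the ranges still overlapped. With Cdh5 alone as the reference, Enpp2 joined the lower group, at -0.81.

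Other genes of the homing pathway were read from 7 lists, with members outside the 10. In the nodes, none of the 65 list genes tested was called between the genotypes by edgeR, DESeq2 or limma-voom. One of them, C1galt1, which encodes the core O-glycan galactosyltransferase, had an unadjusted p under 0.05, as 3.15% of all genes did. Its log2 fold change was -0.23 ± 0.08 (edgeR adjusted p = 0.953). The ranges of the libraries did not overlap for C1galt1 and C1galt1c1, both lower in Foxp3ΔJag1 nodes, and Relb, which was higher. Among all genes 7.29% had such ranges in either direction. The list medians lay between -0.11 for 4 other mucin carriers and 0.025 for 3 node chemokines. By the smallest p in each list, the values were -0.25 ± 0.21 for the mucin Podxl, -0.26 ± 0.16 for the junction gene Cdh5 and -0.13 ± 0.09 for the hyaluronan receptor gene Cd44. For the follicular chemokine gene Cxcl13 the value was 0.25 ± 0.25, for the NF-kB subunit gene Relb 0.15 ± 0.08 and for the lipid phosphatase gene Plpp2 -0.27 ± 0.18, all log2 fold changes with SE and an edgeR adjusted p of 0.953. The genes with the next smallest p were C1galt1c1, the chaperone of C1galt1 (-0.19 ± 0.11), the endothelial mucin gene Emcn (-0.16 ± 0.16), Cd99l2 (-0.12 ± 0.12), Cxcr5 (-0.11 ± 0.08), Cxcl12 (-0.07 ± 0.13), Birc3 (0.09 ± 0.09) and Lpar4 (-0.32 ± 0.27), none of which passed.

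Between tumours and nodes, the enzymes and transporters that make L-selectin ligands moved in both directions. Of 15 such genes outside the members, 7 rose and 6 fell, near the shares of all genes (35.6% higher and 37.6% lower), with a median log2 fold change of 0.41 beside -0.05 over all genes. Chst2, the second sulphotransferase of the pathway, fell by 3.35 ± 0.13 (edgeR adjusted p = 5.19e-07), and Gmds, an enzyme of GDP-fucose synthesis used by many cells, rose by 1.81 ± 0.12 (edgeR adjusted p = 5.75e-06). Of 4 other mucin carriers 2 fell and none rose: Spn, the leukocyte sialophorin, had a log2 fold change of -4.45 ± 0.18, and Cd300lg, an endothelial sialomucin also called nepmucin, -1.93 ± 0.33 (edgeR adjusted p = 6.35e-07 and 0.00169). Of 9 endothelial adhesion genes 6 fell and 1 rose, with Icam2 at -2.94 ± 0.17 and Pecam1 at -2.91 ± 0.22 (edgeR adjusted p = 2.68e-06 and 1.39e-05). Lymphocytes also express both, and 3 genes of this list are among the 16 blood endothelial genes.

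In the list of homing receptors, 10 of 13 genes fell and 3 rose, beside 37.6% of all genes lower and 35.6% higher. Those that rose were Cd44 (2.04 ± 0.12), Itgb1 (1.34 ± 0.12) and Glg1 (0.32 ± 0.09; edgeR adjusted p = 3.34e-06, 3.13e-05 and 0.0148). Which cells of the tumour they came from was not tested. The B cell chemokine receptor gene Cxcr5 had a log2 fold change of -6.81 ± 0.14 and Ccr7, the receptor for the node chemokines of the T zone, -5.16 ± 0.17 (edgeR adjusted p = 8.24e-08 and 2.53e-07). All 3 tested node chemokines fell, with Cxcl13 at -6.94 ± 0.36 and Cxcl12 at -3.39 ± 0.20 (edgeR adjusted p = 4.55e-06 and 4.17e-06). Ccl21a, counted at only 0.06226 ± 0.04478 CPM in Foxp3Ctrl nodes, did not pass the filter on low counts. Whether that count reflects the true level of Ccl21a in nodes was not tested. In the lymphotoxin and non-canonical NF-kB list, 10 of 12 genes fell and 1 rose. The ligand gene Ltb, made by lymphocytes, had a log2 fold change of -6.56 ± 0.18 and Nfkb2 of -2.45 ± 0.10 (edgeR adjusted p = 1.37e-07 and 6.03e-07). The gene that rose was the receptor Ltbr, at 2.31 ± 0.20 (edgeR adjusted p = 3.02e-05), which stromal and myeloid cells express. Around autotaxin, 4 of 9 genes for lysophosphatidic acid receptors and phosphatases fell and 3 rose, near the shares of all genes. The phosphatase gene Plpp2 was at 2.95 ± 0.18 and the receptor gene Lpar3 at -4.13 ± 0.38 (edgeR adjusted p = 4.16e-06 and 3.41e-05).

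**Figure D5:**
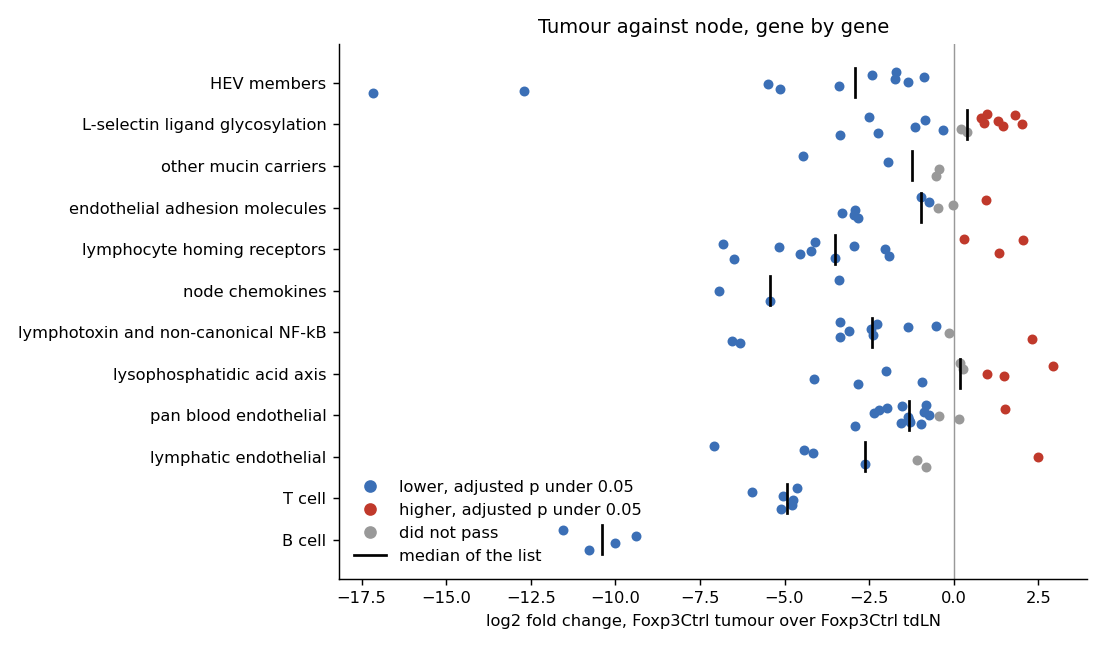
Log2 fold change of single genes in Foxp3Ctrl tumours over Foxp3Ctrl nodes (edgeR), by list; blue points fell and red points rose at an adjusted p under 0.05, grey did not pass, and black lines are list medians. All 10 venule genes are blue with a median of -2.90, the glycosylation list is spread on both sides of 0 with a median of 0.41, and the T and B cell lists lie lower still.

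The members lie on 6 chromosomes of GRCm38, all as protein-coding genes. Selp (chr1:164115264-164150026) and Sele (chr1:164048234-164057677) are neighbours on the plus strand of chromosome 1, which also holds Ackr1 (chr1:173331886-173333750) and Cd34 (chr1:194938819-194961279). Glycam1 (chr15:103562759-103565081) and Enpp2 (chr15:54838901-54952892) lie on chromosome 15. Chst4 is at chr8:110029153-110039740, Fut7 at chr2:25423267-25426374, Madcam1 at chr10:79664559-79668537 and Gcnt1 at chr19:17326141-17372844. Besides Ackr1, the exons of Selp, Cd34 and Enpp2 overlap non-coding genes on the opposite strand. Those had few counts, at most 82 over 3 libraries (Gm26684, opposite Enpp2, in tumours), and the strand setting of the counting is not given in the sources used here.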

How the data were processed

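Values are the whole-number read counts per gene that the authors deposited, not normalized, in a node table and a tumour table. Per the submitters' processing notes, Trimmomatic 0.36, STAR 2.5.2b and featureCounts (Subread 1.5.2) were used with GRCm38; for annotation and strand setting the entry is: not given in the sources used here. Symbols, positions and exon lengths came from GENCODE M21 (48970 of 49315 identifiers matched). The labels list 13 samples and 9 libraries were used; 3 tumour columns matched no sample, and the 4 Foxp3ΔJag1 tumours were not analysed here. All samples carry batch 1. The genes and lists were chosen with earlier results of these data known. All 10 genes are named, with the 2 smallest p per pathway list and comparison. Ltbr, Itgb1, Glg1, Eng and single cell type markers such as Ppbp and Col1a1 are named besides, chosen after their values were seen.

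CPM used total counts. Genes were tested with edgeR 4.0.16 (quasi-likelihood, robust, TMM, filterByExpr) in R 4.3.3, each comparison on its own 6 libraries, with Benjamini-Hochberg adjustment over all genes at an FDR of 0.05; all 10 genes passed the filter in both. The SE came from the coefficient and its F statistic. The code was tested on simulated counts. Replicates differed by more than sampling noise (chi-square per degree of freedom 18.82 to 83.56). Alternatives were DESeq2 1.42.0, its size factors, library size only, limma-voom (limma 3.58.1), other filters, non-robust dispersion, a joint fit, a block on the replicate number and leaving out each library. The block pairs node and tumour through the mouse code in library names (correlation of deviations -0.0827, 0.127 and -0.00272).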

Additional observations from a re-analysis of the deposited data

How the results depend on the processing

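No gene of the set was called between the genotypes under any alternative run. The number of all genes called, 7, was 16 without a filter on low counts, 44 with DESeq2, 11 with the replicate block and 6 to 21 on leaving out a library; across genotypes the samples share only a number (correlations -0.165, 0.034 and -0.124). The fold changes near 0 changed sign: Chst4 was 0.0164 with library size only and 0.0034 with the CPM filter, and Selp was -0.0182 with limma-voom. Leaving out a library gave -0.0777 to 0.1045 for Chst4, -0.0652 to 0.2303 for Ackr1, -0.1397 to 0.3617 for Madcam1, -0.2707 to 0.3278 for Selp, -0.0015 to 0.067 for Gcnt1 and -0.0234 to 0.1133 for Enpp2 (log2). The other 4 genes kept their direction in those fits.

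In tumours all 10 fold changes kept their direction in every alternative run, and 8 to 10 genes were called on leaving out a library. Without a filter on low counts 9 were called, Cd34 being lost (adjusted p = 0.102). The replicate block changed no call of the 10. The genes called, 13583, ranged from 12791 to 13387 on leaving out a library. Scaling by library size only moved the median of all genes to -0.11. Relative to blood endothelial genes, 0 members were lower in every Foxp3ΔJag1 node, 0 to 1 on leaving out a library (1 without Foxp3Ctrl tdLN replicate 2), and 6 in every tumour, 6 to 7 on leaving out a library and 7 against Cdh5 alone. The causes were not tested. Depth limits Glycam1, Chst4 and Madcam1 in tumours, which had 1, 0 and 19 counts there.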
